A study of Mus musculus with 12 samples.

Results

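Apolipoproteins and the proteins that load, remodel, take up and recycle their lipid were followed as a set of 10 genes, Apoe, Clu, Apod, Lcat, Abca1, Abcg1, Lrp1, Npc1, Npc2 and Nr1h2. The genes were listed by name and matched by symbol to mouse Ensembl identifiers, and all 10 were found among the 25442 genes present in the count tables of both cell fractions. The study placed an adeno-associated virus (serotype AAV2/9) in the CA1 field of both hippocampi of male C57Bl6/J mice at 2 months of age and sorted the hippocampal cells at 4 months, 2 months after injection. The vectors carried either the mouse adenosine A2A receptor (AAV-A2A) or green fluorescent protein (AAV-GFP, the control), both under GfaABC1D, a short promoter active mainly in astrocytes, so the controls also carried a virus and a foreign protein. ACSA-2+ cells, an astrocyte-enriched suspension, were captured first on magnetic beads, and CD11b+ cells, a microglia-enriched suspension, were captured from the cells that had not bound. Each fraction was sequenced from 3 AAV-GFP and 3 AAV-A2A animals, 12 libraries in 4 groups, named here by vector and animal number (GFP-303). Whole hippocampi were sorted, not the injected field alone.

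Neurons in the adult brain rely in large part on cholesterol made by astrocytes. Astrocytes pass it out of the cell through the transporters ABCA1 and ABCG1 onto particles built around apolipoprotein E and clusterin, LCAT esterifies the cholesterol in these particles, and receptors such as LRP1 take them up again. Inside the receiving cell NPC2 and NPC1 hand cholesterol out of the lysosome, and LXRβ, the product of Nr1h2, is a sterol-sensing nuclear receptor that pairs with RXR and drives Abca1, Abcg1, Apoe and Srebf1.

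LXR binds a direct repeat, and this element is shown because Abca1 was the only gene of the set in which a search found it. The search looked on both strands for 2 copies of GGTNA in the same direction with 5 bases between them. It covered windows of the 250 bases before the RefSeq start site (GRCm38.p6). Of the 7 genes with such a window (Abca1, Apoe, Apod, Lcat, Lrp1, Npc2 and Nr1h2), Abca1 alone had a match, which began 67 bases before the start. The 30 bases around it lie at chr4:53159940-53159969 and are written along the minus strand, on which Abca1 is read, with the match in capitals.
Abca1: cagcgttTGACCGGTAGTAACCccggcgct
Such a repeat occurred in 171 of 27025 mouse promoter windows (0.633%), so the match is a description of this promoter and not a measured binding site.

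The total count on genes ran from 33937067 to 49217553 in the ACSA-2+ libraries and from 36098295 to 53206974 in the CD11b+ libraries, and each of the 10 genes had at least 85 reads in every library. The unit of level is CPM, the reads of a gene for each 1000000 reads of its library, with library sizes adjusted by TMM over the 12 libraries. Adora2a, the delivered gene, stood at 23.2 to 25.6 CPM in AAV-GFP and 655 to 927 CPM in AAV-A2A ACSA-2+ libraries (log2 FC 5.02, edgeR adjusted p = 1.55e-05), so the labels held. The 12 astrocyte markers summed to between 26100 and 40200 CPM in ACSA-2+ libraries and to between 318 and 604 CPM in CD11b+ libraries, and the 12 microglia markers to between 534 and 913 against 11700 to 90400 CPM. In the CD11b+ fraction the libraries GFP-2328, GFP-2329 and A2A-2347 stood apart, with 10 choroid plexus markers summing to between 30400 and 75000 CPM, against 11.4 to 101 CPM in GFP-2331, A2A-2343 and A2A-2344. Erythrocyte markers were at 1020 to 5990 CPM in the CD11b+ AAV-GFP libraries and at 56.8 to 253 CPM in those of AAV-A2A. In bulk samples fewer cells of a type and less RNA per cell cannot be told apart.

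Levels of different genes can be compared only per length, and for this CPM was divided by the union exon length in kilobases (RPKM). Orders and ratios between genes rest on these union lengths, such as 11317 bases for Npc1 and 5438 for Npc2. Lengths of single transcripts were not tried. In ACSA-2+ cells of AAV-GFP animals the genes covered nearly 4 orders of magnitude. Apoe was highest at 25080 ± 214 RPKM (SD, n = 3), followed by Clu at 3624 ± 389, Lcat at 864 ± 136 and Apod at 447 ± 99.6 RPKM. The 4 secreted proteins thus led the order, and none of their ranges overlapped with the next. The 2 lysosomal genes came next, Npc1 at 92.4 ± 16.6 and Npc2 at 57.1 ± 2.67 RPKM. Abca1 (41.7 ± 12.3) and Lrp1 (40.9 ± 7.53) could not be ordered, because their ranges overlapped. Nr1h2 was at 26.0 ± 6.64 RPKM, below Lrp1 in every library but with a range that overlapped that of Abca1, and Abcg1 was lowest at 2.77 ± 0.538 RPKM, so that of the 2 exporters Abca1 was 15.9 ± 6.62 times as abundant as Abcg1 in the same library.

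**Figure D1:**
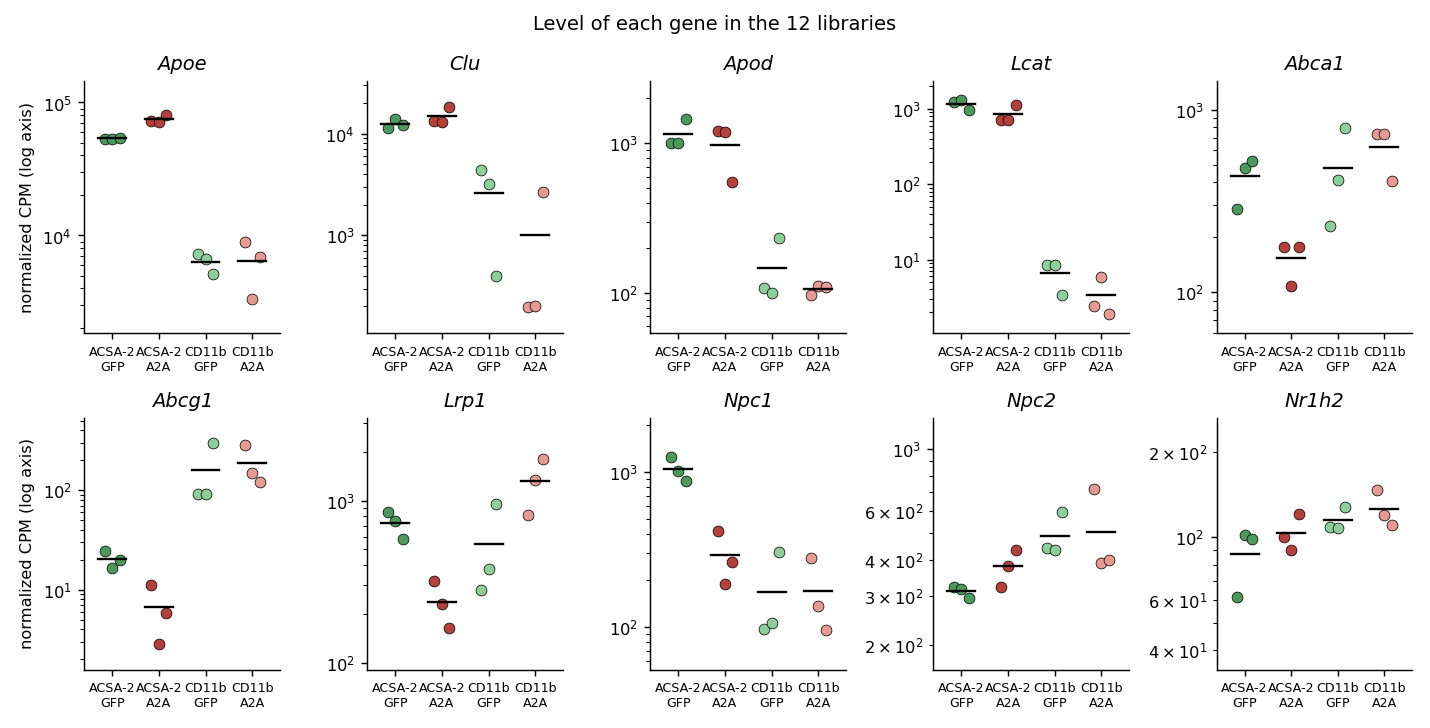
Level of each of the 10 genes in the 12 libraries, in CPM on a log axis, by cell fraction and vector, with 1 point per library and a line at the group mean. In ACSA-2+ cells Abca1, Abcg1, Lrp1 and Npc1 were lower in all 3 AAV-A2A libraries than in any AAV-GFP library, whereas in CD11b+ cells the groups overlapped for all 10 genes.

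The first comparison asked what A2A receptor expression in astrocytes changed in these genes in the ACSA-2+ fraction. Npc1, Lrp1 and Abca1 were lower in AAV-A2A than in AAV-GFP animals, by 3.55, 2.99 and 2.76 fold, and no gene of the set was called higher. A gene was called at a Benjamini-Hochberg adjusted p under 0.05 over all tested genes and an absolute log2 FC over 0.32, with edgeR's quasi-likelihood test. Of the 10 genes 3 were called, all lower, beside 553 of 16451 genes tested (3.36%), of which 524 were lower (3.19%) and 29 higher (0.176%). The groups did not overlap for 6 of the 10 genes, 2 of them higher and 4 lower in AAV-A2A animals, beside 19.6% of all genes tested (8.61% higher and 10.9% lower). The median log2 FC of the 10 genes was -0.31, and that of all genes was 0.022. In a fit of all 12 libraries, which takes 1 spread from both fractions, none of the 3 was called (adjusted p from 0.186 to 0.226).

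Apoe (chr7:19696109-19699188, minus strand, coordinates of GRCm38 here and below) encodes the main lipid carrier secreted by astrocytes. Its level was 53270 CPM in GFP-303, 53430 CPM in GFP-306 and 54130 CPM in GFP-307, against 72670, 71130 and 80490 CPM in A2A-309, A2A-310 and A2A-313. Every AAV-A2A library was above every AAV-GFP library, and the coefficient of variation of the AAV-GFP libraries was 0.855%. The log2 FC was 0.51 (SE 0.17), a level 1.42 times that of the control, but it did not pass the threshold of the edgeR test (adjusted p = 0.186). Other tools placed it on the other side, with an adjusted p of 0.00874 in DESeq2 and 0.0404 in limma-voom. Apoe took 5.07 to 5.44% of all counts in AAV-GFP libraries and 7.39 to 7.65% in AAV-A2A libraries.

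Clu (chr14:65968483-65981547, plus strand), which encodes clusterin or apolipoprotein J, had 11270, 13900 and 12200 CPM with AAV-GFP and 13430, 12990 and 18230 CPM with AAV-A2A, the libraries standing in the same order. The groups overlapped, A2A-313 being the single high library, and the log2 FC was 0.29 (SE 0.20, adjusted p = 0.653). Apod (chr16:31296192-31314808, minus strand), a lipocalin that carries small lipids rather than bulk cholesterol, was at 1009, 999 and 1448 CPM in AAV-GFP and at 1203, 1191 and 553 CPM in AAV-A2A libraries. Here A2A-313 was the low library, and the other libraries of the group lay inside the control range. Its log2 FC of -0.21 (SE 0.29, adjusted p = 0.87) became 0.066 without A2A-313.

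Lcat (chr8:105939551-105943382, minus strand), the enzyme that esterifies cholesterol on the secreted particles, had 1220, 1305 and 955 CPM with AAV-GFP and 708, 716 and 1117 CPM with AAV-A2A. The AAV-A2A libraries A2A-309 and A2A-310 were below all controls and A2A-313 was within them. The log2 FC was -0.42 (SE 0.23, adjusted p = 0.513).

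Abca1 (chr4:53030787-53159895, minus strand) encodes the transporter that moves cholesterol and phospholipid onto lipid-poor apolipoproteins. The controls had 287, 483 and 526 CPM, whereas A2A-309 had 177, A2A-310 had 108 and A2A-313 had 176 CPM. All 3 AAV-A2A libraries were below the lowest control, GFP-303, with a log2 FC of -1.46 (SE 0.28, adjusted p = 0.0198). This call needed nearly every library, since the adjusted p was 0.0167 without GFP-303 but between 0.0537 and 0.0967 when any other library was left out (GFP-306, GFP-307, A2A-309, A2A-310 or A2A-313 in turn), and the fold change kept its direction throughout.

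Abcg1 (chr17:31057675-31117988, plus strand) encodes the half-transporter that passes cholesterol to particles already carrying lipid. Its level in ACSA-2+ cells was low, with 24.3, 16.4 and 19.97 CPM in AAV-GFP and 11.3, 2.81 and 5.76 CPM in AAV-A2A libraries, from 119 to 951 reads each. The groups did not overlap and the log2 FC of -1.59 was as large as that of Abca1, but the spread within AAV-A2A was wide (SE 0.47) and the gene was not called (adjusted p = 0.134). It passed with DESeq2 (adjusted p = 0.0166) and without A2A-309 (log2 FC -2.20, adjusted p = 0.0447). As Apoe and Abca1 went opposite ways, the ratio of Apoe to Abca1 per length was 499 to 900 in AAV-GFP libraries and 1990 to 3210 in AAV-A2A libraries.

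Lrp1 (chr10:127538161-127621148, minus strand) encodes a large endocytic receptor for ApoE-containing particles and many other ligands. Its control values were 846, 748 and 582 CPM, and those of A2A-309, A2A-310 and A2A-313 were 322, 230 and 163 CPM. The highest AAV-A2A library, A2A-309, was well under the lowest control, GFP-307, and the log2 FC was -1.58 (SE 0.26, adjusted p = 0.00921). Leaving out GFP-306 (adjusted p = 0.0518) or, in its place, A2A-310 (adjusted p = 0.0565) narrowly ended the call, which stood without any other single library.

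Npc1 (chr18:12189692-12236400, minus strand), the sterol transporter of the lysosomal membrane, had the lowest log2 FC of the 10 genes. Controls had 1244, 1019 and 872 CPM, and AAV-A2A libraries 418, 188 and 262 CPM. The lowest control was above the highest AAV-A2A library by more than the range within AAV-A2A. Its log2 FC was -1.83 (SE 0.28, adjusted p = 0.00776), and the gene was called whichever library was left out, with an adjusted p of at most 0.0465. It shares 601 exonic bases, 5.3% of its exon length, with Rmc1 and Gm15956 on the other strand, and the kit does not tell the strands apart there.

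Npc2 (chr12:84754562-84773152, minus strand), the soluble lysosomal protein that hands cholesterol to NPC1, did not follow its partner. It was at 321, 317 and 294 CPM in AAV-GFP and at 321, 383 and 437 CPM in AAV-A2A libraries, where A2A-309 exceeded GFP-303 by less than 1 CPM. The log2 FC was 0.32 (SE 0.18, adjusted p = 0.506). The ratio of Npc1 to Npc2 per length, taken within each library, was 1.86, 1.54 and 1.43 for the controls and 0.626, 0.236 and 0.288 for A2A-309, A2A-310 and A2A-313. In the order of mean levels per length, Npc1 was therefore 2 places lower with AAV-A2A, at 25.6 ± 10.4 RPKM, below Npc2 at 70.0 ± 10.6 and with a range that overlapped those of Nr1h2 at 30.9 ± 4.56, Abca1 at 14.8 ± 3.85 and Lrp1 at 13.5 ± 4.48 RPKM.

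Nr1h2 (chr7:44549616-44553951, minus strand), the LXRβ gene itself, was at 61.6, 101.8 and 98.3 CPM in AAV-GFP and at 99.98, 90.5 and 120.4 CPM in AAV-A2A libraries. The groups overlapped, and GFP-303 was the low library. The log2 FC was 0.28 (SE 0.23, adjusted p = 0.728).

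**Figure D2:**
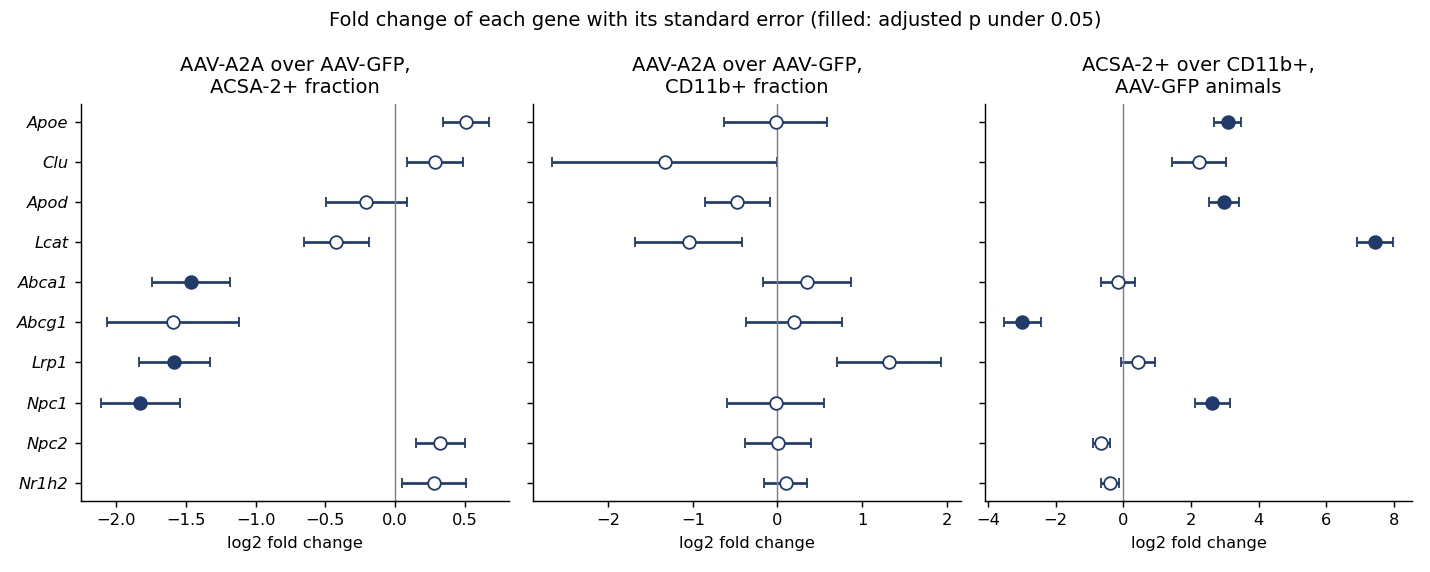
Log2 fold change of each gene with its standard error, in AAV-A2A over AAV-GFP animals for the ACSA-2+ fraction (left) and the CD11b+ fraction (middle), and in ACSA-2+ over CD11b+ cells of AAV-GFP animals (right), each with its own axis and with filled points for called genes. The log2 fold changes of Abca1, Abcg1, Lrp1 and Npc1 in ACSA-2+ cells ranged from -1.46 to -1.83, with Abcg1 not called, and no gene was called in the middle panel.

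The wider pathway was read from 6 lists of 101 genes, of which 86 were tested in ACSA-2+ cells. Of these 1 was called higher and 3 lower, again beside 0.176% and 3.19% of all genes, and the median log2 FC was -0.014. None of the 6 other apolipoproteins, the 21 lipoprotein receptors and partners, the 6 remodelling enzymes or the 24 genes of intracellular sterol transport and turnover was called. Vldlr and Lrp8, receptors for ApoE and reelin, had log2 FC values of -0.86 (SE 0.57) and -0.82 (SE 0.30). Vldlr was low, at 7.21 ± 3.61 CPM in AAV-GFP and 3.89 ± 1.75 CPM in AAV-A2A libraries. The 21 receptors and partners had a median log2 FC of -0.055, with 9 positive.

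In the list of 14 LXR partners and targets, Srebf1, an LXR target that encodes the lipogenic factor SREBP1, was lower, from 1286 ± 122 to 514 ± 128 CPM (log2 FC -1.30, SE 0.21, adjusted p = 0.00944), and it was called whichever library was left out. Ncor1, a corepressor of nuclear receptors, was higher, from 77.9 ± 4.38 to 148 ± 11.9 CPM (log2 FC 0.95, SE 0.16, adjusted p = 0.0114), a call that ended without GFP-306, GFP-307 or A2A-310 (adjusted p up to 0.0726). Nr1h3, the gene of LXRα, had a log2 FC of -0.012 (SE 0.24). Rxra, the gene of the LXR partner RXRα, had 77.1 ± 16.5 CPM in AAV-GFP and 17.7 ± 14.7 CPM in AAV-A2A libraries, and its log2 FC of -2.10 missed the threshold (SE 0.50, adjusted p = 0.0547). Without A2A-309 it was -3.02 and was called (adjusted p = 0.00483). In the fit of all 12 libraries neither Srebf1 nor Ncor1 was called (adjusted p = 0.138 and 0.0742).

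The 4 genes that were lower in every AAV-A2A library were also the 4 longest of the set, with union exons of 7298 to 17717 bases, whereas the other 6 had 1342 to 5438 bases. Over all genes tested in ACSA-2+ cells, the median log2 FC went from 0.15 in the quintile with the shortest exons to -0.12 in the quintile with the longest (7121 bases and more), and the share called lower went from 0.426% to 7.03%. The 4 genes lay further down than the median of their quintile. With each library's trend on length and GC content removed, the log2 FC was -1.62 for Npc1 (adjusted p = 0.0126), -1.23 for Lrp1 (adjusted p = 0.0159), -1.21 for Abca1 (adjusted p = 0.0436) and -1.36 for Abcg1 (adjusted p = 0.182), so that the same 3 genes were called. Within the 10 genes Spearman's rho of log2 FC with length was -0.64, a description over genes that share the same 6 libraries. Whether transcript length had a part in the 4 values beyond this trend was not tested.

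**Figure D3:**
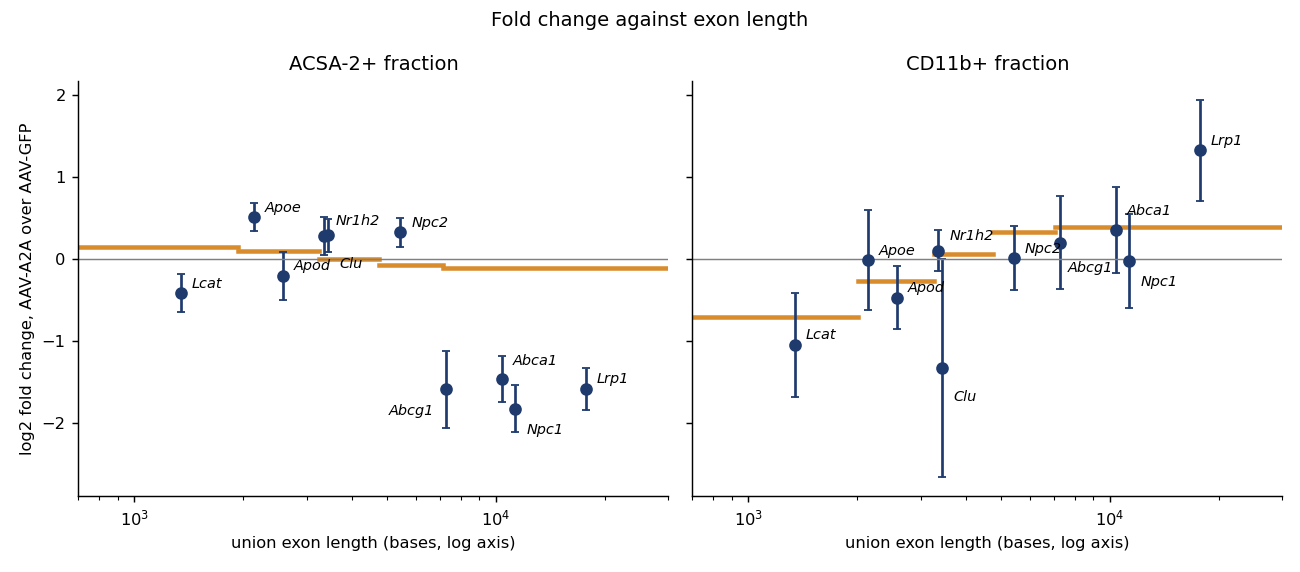
Log2 fold change of the 10 genes in AAV-A2A over AAV-GFP animals with its standard error, against union exon length on a log axis, in ACSA-2+ cells (left) and CD11b+ cells (right), with orange lines at the median of all tested genes in each length quintile. On the left the 4 genes of 7298 bases and more lay between -1.46 and -1.83, below the median of -0.12 of their quintile, and on the right the medians ran from -0.71 to 0.39.

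Markers of 12 cell types were summed in the ACSA-2+ libraries, and the sums of AAV-GFP and AAV-A2A animals overlapped for 11 of them, among them microglia (537 to 913 against 534 to 854 CPM), endothelial cells (2320 to 2530 against 2000 to 2960 CPM) and mural cells (4900 to 4970 against 3540 to 5090 CPM). The choroid plexus markers were the exception, at 590 to 642 against 650 to 1090 CPM, with none of 9 tested genes called. Vtn made up most of the mural sum, at 3990 ± 92.8 against 3500 ± 604 CPM, and 1 of 9 mural markers had a positive log2 FC (median -0.49, beside 0.022 over all genes), with 2 lower in every AAV-A2A library. The fibroblast and meningeal markers had a median of -0.37, with 2 of 9 positive, and the erythrocyte markers one of -0.18, with 0 of 6 positive. Of the 12 astrocyte markers Atp1b2 was called lower, as were Flt1 of the endothelial, Notch3 of the mural and Cspg4 of the oligodendrocyte precursor list. The astrocyte list as a whole had a median of 0.037 with 8 of 12 positive. The endothelial median was -0.13 (5 of 10 positive) and that of the precursors -0.26 (2 of 5). Medians were above 0 for choroid plexus (0.33, 6 of 9 positive), oligodendrocyte (0.20, 6 of 7) and microglia markers (0.080, 6 of 12). The part of such cells in the values of the 10 genes was not tested.

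The second comparison asked whether microglia-enriched cells of the same kind of animals differed in these genes when the vector carried the receptor under the astrocyte promoter. Adora2a was also read in these libraries, at 3.77, 4.67 and 8.30 CPM in GFP-2328, GFP-2329 and GFP-2331 and at 18.6, 45.2 and 14.97 CPM in A2A-2343, A2A-2344 and A2A-2347. The groups did not overlap, and the gene was not called (log2 FC 2.20, edgeR adjusted p = 0.28). No gene of the set was called in CD11b+ cells, and no group was apart from the other for any of the 10 genes, beside 23.4% of all genes tested. edgeR called 0 of 16949 genes (0%), with 2704 at an unadjusted p under 0.05. limma-voom called 0 and DESeq2 called 502, none of them in the set. The lowest unadjusted p of the 10 genes was 0.071, for Lrp1. The standard errors ran from 0.25 for Nr1h2 to 1.33 for Clu, against 0.17 for Apoe to 0.47 for Abcg1 in ACSA-2+ cells. The median log2 FC of the set was -0.0062, and that of all genes was -0.050.

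Clu followed the choroid plexus markers from library to library. It was at 4338 and 3169 CPM in GFP-2328 and GFP-2329 and at 2647 CPM in A2A-2347, where these markers summed to 75000, 62200 and 30400 CPM, and at 397, 198 and 204 CPM in GFP-2331, A2A-2343 and A2A-2344, where they summed to 101, 75.1 and 11.4 CPM. The group comparison (log2 FC -1.33, SE 1.33, adjusted p = 0.646) thus set groups with 2 and 1 such libraries against each other. Ttr, the most abundant choroid plexus marker and a thyroid hormone carrier, was at 25250 to 68860 CPM in the 3 former and at 5.27 to 79.5 CPM in the 3 latter libraries. The part of choroid plexus RNA in Clu was not tested.

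Abca1, Abcg1, Npc1 and Nr1h2 went the other way, each lower in all 3 choroid plexus-rich libraries than in the other 3. The remaining 5 genes overlapped. The share of all genes that lay apart in this split was not counted, so the split is a description and not a trait of these genes. Abca1 was at 231, 414 and 799 CPM in GFP-2328, GFP-2329 and GFP-2331, and at 736, 734 and 405 CPM in A2A-2343, A2A-2344 and A2A-2347 (log2 FC 0.35, SE 0.52). Within each vector the choroid plexus-rich libraries were the low ones. Abcg1 was at 92.02, 91.4 and 298 CPM in AAV-GFP and at 287, 150 and 120 CPM in AAV-A2A libraries (log2 FC 0.19, SE 0.57), and Npc1 at 97.0, 106 and 305 against 278, 137 and 95.4 CPM (log2 FC -0.022, SE 0.57). The microglia markers were also lower in the choroid plexus-rich libraries. They summed to 11700, 24300 and 28200 CPM in GFP-2328, GFP-2329 and A2A-2347. In GFP-2331, A2A-2343 and A2A-2344 they summed to 86500, 90400 and 65500 CPM. The part of microglial content in the levels of Abca1, Abcg1, Npc1 and Nr1h2 was not tested.

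Lrp1 had the highest log2 FC of the set in CD11b+ cells. It was at 280, 379 and 957 CPM in GFP-2328, GFP-2329 and GFP-2331, and at 812, 1349 and 1803 CPM in A2A-2343, A2A-2344 and A2A-2347. The control GFP-2331 lay within the AAV-A2A range and the other controls lay below it, and the log2 FC of 1.32 (SE 0.62) was not called (adjusted p = 0.347). With the 3 choroid plexus-rich libraries left out, which left a single control, it was 0.16, an alternative chosen after the data were seen. Lrp1 has the longest exons of the set, and with the length and GC trend removed its log2 FC was 0.73 (SE 0.73), beside a median of 0.39 in the quintile with the longest exons.

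The remaining genes of CD11b+ cells gave no separation. Apoe was at 7232, 6674 and 5161 CPM in GFP-2328, GFP-2329 and GFP-2331 and at 8929, 3327 and 6898 CPM in A2A-2343, A2A-2344 and A2A-2347 (log2 FC -0.019, SE 0.61). Lcat was low in this fraction, at 3.34 to 8.40 CPM in AAV-GFP and 1.90 to 5.86 CPM in AAV-A2A libraries (log2 FC -1.05, SE 0.63). Apod had a log2 FC of -0.47 (SE 0.38), with GFP-2331 the single high library at 234 CPM and the other 5 between 97.5 and 112 CPM. Npc2 ranged from 435 to 594 against 391 to 715 CPM (log2 FC 0.0068, SE 0.39) and Nr1h2 from 107 to 128 against 110 to 146 CPM (log2 FC 0.10, SE 0.25). Of the pathway lists, 0 of 92 tested genes were called.

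**Figure D4:**
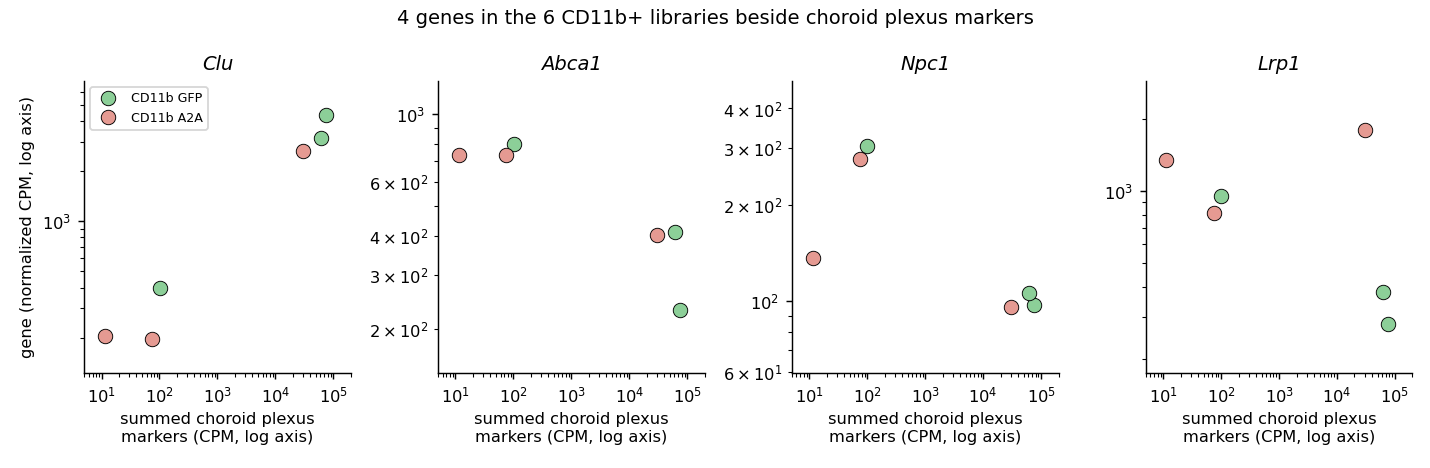
Level of Clu, Abca1, Npc1 and Lrp1 in the 6 CD11b+ libraries (CPM, log axis) against the summed level of 10 choroid plexus markers (CPM, log axis), with 1 point per library and the vector by colour. Clu was at 2647 to 4338 CPM in the 3 libraries at the right and at 198 to 397 CPM in the 3 at the left, while Abca1 and Npc1 were lower at the right and Lrp1 overlapped.

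The A2A effects in the 2 fractions were then compared directly, as the log2 FC in ACSA-2+ cells minus that in CD11b+ cells over all 12 libraries. edgeR called none of the 10 genes, beside 75 of 18602 genes (0.403%), while 4 of the 10 genes, and 3645 of all 18602, had an unadjusted p under 0.05. Lrp1 came nearest, at -2.90 (SE 0.68, adjusted p = 0.0716). Its call depended on the tool and filter, with an adjusted p of 0.00264 in DESeq2, 0.0472 with at least 10 counts required in every library and 0.0601 in limma-voom, and a difference of -1.79 (adjusted p = 0.336) without the choroid plexus-rich libraries. With each library's trend on length and GC content removed it was -2.01 (adjusted p = 0.30). The differences for Abca1, Npc1 and Abcg1 were -1.87 (SE 0.64, adjusted p = 0.147), -1.86 (SE 0.74, adjusted p = 0.197) and -1.83 (SE 0.81, adjusted p = 0.239). With the same trend removed they were -1.34, -1.47 and -1.33 (adjusted p = 0.506, 0.539 and 0.585). The values of the main fit for the 4 genes depended on single libraries. Without GFP-2331 all 4 genes were called, at -3.61 for Lrp1 (adjusted p = 0.0118) and at -2.45 to -2.64 for the other 3. That fit called 1286 genes in place of 75. GFP-2331 was the only CD11b+ control that was not choroid plexus-rich, so every remaining control in that fit was. Abca1, Abcg1 and Npc1 were lower in the rich libraries, and the part of this in the calls was not tested. Without A2A-2343 Lrp1 was the only one of the 10 called (-3.16, adjusted p = 0.0316), among 830 genes in all. The effects on these 4 genes in ACSA-2+ cells were therefore not shown to differ from those in CD11b+ cells at the threshold of the main test.

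The fractions themselves differed widely in the AAV-GFP animals. They came in separate tables from animals with different numbers, so cell fraction and any difference in handling between these animals cannot be told apart. Lcat, Apoe, Apod and Npc1 were higher in ACSA-2+ than in CD11b+ cells and Abcg1 was lower. These 5 of 10 genes were called beside 25.8% of all genes tested (12.7% higher and 13% lower), and the groups did not overlap for 8 of 10 beside 50.3% of all genes.

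The 4 secreted proteins had the higher level in ACSA-2+ cells, and 3 of them were called. Lcat was 173 fold higher in ACSA-2+ cells, at 1160 ± 183 against 6.69 ± 2.90 CPM (SD, n = 3; log2 FC 7.44, SE 0.53, adjusted p = 4.89e-04). Apoe was 8.44 fold higher, at 53610 ± 458 against 6355 ± 1072 CPM (log2 FC 3.08, SE 0.41, adjusted p = 0.00404), and it was still the highest gene of the set per length in CD11b+ cells, at 2973 ± 501 RPKM. Apod was 7.81 fold higher, at 1152 ± 257 against 148 ± 75.3 CPM (log2 FC 2.96, SE 0.44, adjusted p = 0.0058). Clu, at 12460 ± 1337 against 2635 ± 2024 CPM, was not called (log2 FC 2.24, SE 0.80, adjusted p = 0.0801), but reached a log2 FC of 4.94 (adjusted p = 2.95e-04) when only GFP-2331 stood for the CD11b+ controls.

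The export and lysosomal genes split between the fractions. Abcg1 was 7.93 fold lower in ACSA-2+ cells, at 20.2 ± 3.93 against 160 ± 119 CPM (log2 FC -2.99, SE 0.54, adjusted p = 0.0105), while Abca1 was at 432 ± 127 against 481 ± 290 CPM with overlapping libraries (log2 FC -0.16, SE 0.49). The ratio of Abca1 to Abcg1 per length was therefore 8.33 to 20.7 in ACSA-2+ and 1.77 to 3.19 in CD11b+ control libraries. Npc1 was 6.17 fold higher in ACSA-2+ cells, at 1045 ± 188 against 169 ± 117 CPM (log2 FC 2.63, SE 0.52, adjusted p = 0.0141), a call that ended without GFP-303, GFP-306 or GFP-2329 (adjusted p = 0.0549, 0.0518 and 0.0561). That of Abcg1 ended without GFP-306 (adjusted p = 0.0543). The CD11b+ controls GFP-2328 and GFP-2329 were choroid plexus-rich and lower than GFP-2331 for Npc1, Abcg1 and Abca1. Npc1 was at 97.0 and 106 against 305 CPM, Abcg1 at 92.02 and 91.4 against 298, and Abca1 at 231 and 414 against 799. Omissions of single libraries aside, log2 FC ran from 1.75 to 2.82 for Npc1, -3.91 to -2.76 for Abcg1 and -0.92 to -0.026 for Abca1. The part of choroid plexus RNA in these fold changes was not tested. Npc2 had a log2 FC of -0.66 (SE 0.25, adjusted p = 0.0985), Nr1h2 one of -0.40 (SE 0.27) and Lrp1 one of 0.43 (SE 0.49). The ratio of Npc1 to Npc2 was 0.105, 0.117 and 0.247 in the CD11b+ controls, against 1.43 to 1.86 in the ACSA-2+ controls. Of the AAV-A2A ACSA-2+ libraries, A2A-309 and A2A-313 lay between these ranges and A2A-310 inside that of the CD11b+ controls.

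The genes most like Apoe and Lrp1 were ranked by Pearson's r of log2(CPM + 0.1), over 10776 genes with a mean of at least 5 CPM in the 6 ACSA-2+ libraries. These libraries share the vector contrast, so that r follows the groups. Nearest to Apoe was Tomm40 (r = 0.998), which encodes a channel of the mitochondrial outer membrane and ends 2124 bases from Apoe on the same strand of chromosome 7. Tomm40 was at 85.9, 83.9 and 88.2 CPM in AAV-GFP and at 126, 120 and 139 CPM in AAV-A2A libraries, and Vps72 and Stub1 followed (r = 0.995 and 0.994). Nearest to Lrp1 were Mlxip, the gene of a glucose-responsive transcription factor (r = 0.9995), Amt of the glycine cleavage system (r = 0.9992) and Gps2, a subunit of the NCoR corepressor complex (r = 0.996). Mlxip went from 134 ± 21.9 to 48.6 ± 15.1 CPM and Gps2 from 215 ± 28.0 to 109 ± 17.6 CPM. Over all 12 libraries, where r mostly follows the cell fraction, Apoe was nearest to Pla2g7, Inca1 and Fndc4 (r = 0.988 each) and Lrp1 to Dop1b, Wdfy3 and Sin3a (r = 0.967, 0.961 and 0.941).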

How the data were processed

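RNA of the sorted cells was copied to full-length cDNA, amplified by PCR and read in single-end mode. The reads carry no molecular identifiers and include PCR copies of one molecule. The authors deposited raw counts per Ensembl gene (release 102) for 27866 and 30359 genes. Per the study's methods and the submitters' processing notes, reads were trimmed with cutadapt 1.10, aligned to mm10 (GRCm38) with STAR 2.5.3 and counted with HTSeq 0.6.1p1, which keeps uniquely aligned reads on a single gene. The kit does not mark strand, and a strand setting was not given in the sources used here. The 25 unnamed empty columns of 1 table were not used.

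Here each fraction was fitted separately with edgeR 4.0.16 in R 4.3.3 (TMM, filterByExpr, robust quasi-likelihood test, Benjamini-Hochberg adjustment). The SE is the absolute log2 FC divided by the square root of F. Over the genes of both tables, a fit of the AAV-GFP libraries gave the fraction contrast, and a separate fit of all 12 libraries gave the difference of effects. Alternatives were DESeq2 1.42.0, limma-voom in limma 3.58.1, different scalings and count filters, a fit of all 12 libraries, a length and GC offset, and the omission of single libraries. Scripts were tested on simulated data. Exon lengths, GC content and positions came from GENCODE (GRCm38), where 27813 and 30289 identifiers matched, and promoter windows from RefSeq. Figures used matplotlib in Python.

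Groups came from the sample labels. That the animals are separate rests on their numbers, and p-values measure the spread between these libraries. No 2 replicates agreed within sampling noise (chi-square per degree of freedom of at least 51.6). The 10 genes, the pathway lists and the marker lists were chosen with earlier results of these data known. The genes named are the 10, pathway genes called in AAV-A2A against AAV-GFP (at most 4 a list), Vldlr, Lrp8, Nr1h3, Rxra and Srebf1, the most abundant marker of a list, Adora2a, and the 3 genes most like Apoe and Lrp1. Some genes under this rule are not reported here. The called markers Atp1b2, Flt1, Notch3 and Cspg4 are named outside this rule, with their values already known.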

Additional observations from a re-analysis of the deposited data

How the results depend on the processing

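With 3 libraries per group, a call rests on few animals, and any lone sample left by an omission is assumed to vary like the other groups. In ACSA-2+ cells the count of called genes was 1277 with DESeq2 and 156 in the fit of all 12 libraries, against 553, and 272 to 448 with 1 library left out. The count within the set was 5 with DESeq2 (Apoe higher, Abcg1 added lower), 0 in the fit of all 12 libraries, where Npc1, Lrp1 and Abca1 had adjusted p values of 0.186, 0.212 and 0.226, and 1 to 3 with a library left out. That fit takes 1 spread from both fractions. In CD11b+ cells DESeq2 called 502 genes, the fit without the choroid plexus-rich libraries 3, and every fit leaving out a library 0. For ACSA-2+ against CD11b+ cells DESeq2 called 6834 genes, and fits leaving out a library 1927 to 5836, with 3 to 7 of the set. For the difference of effects the count was 1740 with DESeq2, 10 with RLE scaling, 0 with total counts, 345 with at least 10 counts in every library, 0 with length and GC removed, 0 without the choroid plexus-rich libraries and 0 to 1286 with a library left out. Within the set it was 1 with DESeq2, 1 with at least 10 counts and 0 to 4 with a library left out. The causes were not tested.

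Signs turned only for values that were not called. In CD11b+ cells Npc1 became 0.045 and Npc2 -0.032 with limma-voom, Npc2 -0.016 with RLE scaling, Npc2 -0.13 and Nr1h2 -0.026 with total counts, Apoe 0.023 and Npc1 0.012 without a filter, Npc2 -0.070 with at least 10 counts, Apoe 0.43, Abcg1 -0.041 and Npc2 -0.088 with length and GC removed, and Apoe 0.0066 and Npc1 0.0046 in the fit of all 12 libraries. Without the choroid plexus-rich libraries Apoe was 0.23, Abca1 -0.14, Abcg1 -0.47, Npc2 -0.12 and Lcat 0.29 in CD11b+ cells, Lrp1 -0.43 between fractions, and Lcat -0.77 in the difference of effects. In that difference Apod was -0.15 and Lcat -0.29 with length and GC removed. With a library left out, the log2 FC ranged in CD11b+ cells from -0.30 to 0.30 for Apoe, -0.21 to 0.94 for Abcg1, -0.52 to 0.66 for Npc1 and -0.29 to 0.17 for Npc2, in ACSA-2+ cells from -0.37 to 0.066 for Apod, between fractions from -0.50 to 0.42 for Abca1, and in the difference of effects from -0.27 to 0.52 for Apod and -0.079 to 0.33 for Nr1h2. No paired analysis was possible because the groups share no replicate numbers.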
